A study of Homo sapiens with 6 samples.

Results

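The transcriptome of mock HT1080 cells was read from 2 arrays of a series of 6, those titled HT1080-GUS-1 and HT1080-GUS-2 and called mock array 1 and mock array 2 here. HT1080 is an established line of human fibrosarcoma, a malignant tumour of connective tissue. The mock cells had been transfected with the pGUS vector carrying GFP and no siRNA, so they are vector-carrying and not untouched cells. The other 4 arrays carried the same vector with an siRNA against MT1-MMP or integrin alpha3 and were not used. Total RNA was hybridised to single-channel oligonucleotide arrays of 22283 probe sets, of which 19065 had 1 gene symbol and represented 11963 genes. All of these genes were ranked by signal, with no filter on their values. Nothing in the labels says whether the arrays came from separate cultures, so the spread between them may be technical, and with 2 arrays of 1 group no test was made.

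A fibrosarcoma cell is related to the fibroblast, which anchors itself through integrins, carries vimentin filaments in place of the keratins of epithelia, and secretes and cuts collagen, laminin and fibronectin. HT1080 is known for an activating mutation of NRAS and for invading matrix with the membrane-bound collagenase MT1-MMP, and it is widely used in studies of invasion. NRAS itself is not analysed here.

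The signal of a probe set is an intensity in arbitrary units. It depends on how well its probes bind as well as on the amount of RNA, so a rank between genes is a rank of signals and a near neighbour in the order may not differ in RNA. A gene was given the signal of its brightest probe set. The level that an array shows without transcript was gauged from 143 probe sets of 105 genes restricted to tissues such as liver, retina or pancreas, among them insulin and albumin. Their 95th percentile, 84.4 on mock array 1 and 90.2 on mock array 2, was taken as the background limit. INS was at 3.1 and 5.3 and ALB at 6.6 and 15.4, far under it. The brightest probe set of the 143 reached 131 and 129, and 27 control probe sets for Bacillus transcripts had medians of 5.6 and 7.9. A gene above the limit but under 131 and 129 is therefore still within the range of these genes, which were taken as silent. A gene is called above the limit where both arrays exceeded it and near background where neither did.

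Above the limit were 6139 genes (51.3%), near background 5080 (42.5%), and 744 lay above it on 1 array only. The top 10% of genes, 1196 in number, began at a signal of 929. Across the 11963 genes the arrays correlated with r = 0.974 on the log2(signal + 32) scale, a description across genes that are not independent. Of the genes above the limit, 91.4% differed by less than 1.5-fold between the arrays on that log2 scale, which understates folds of dim genes. Their median absolute difference was 0.20 on the same scale. The 90th percentile of that difference was 0.55. These values describe the same gene on both arrays and set no bound for comparing different genes, whose probes also differ.

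**Figure D1:**
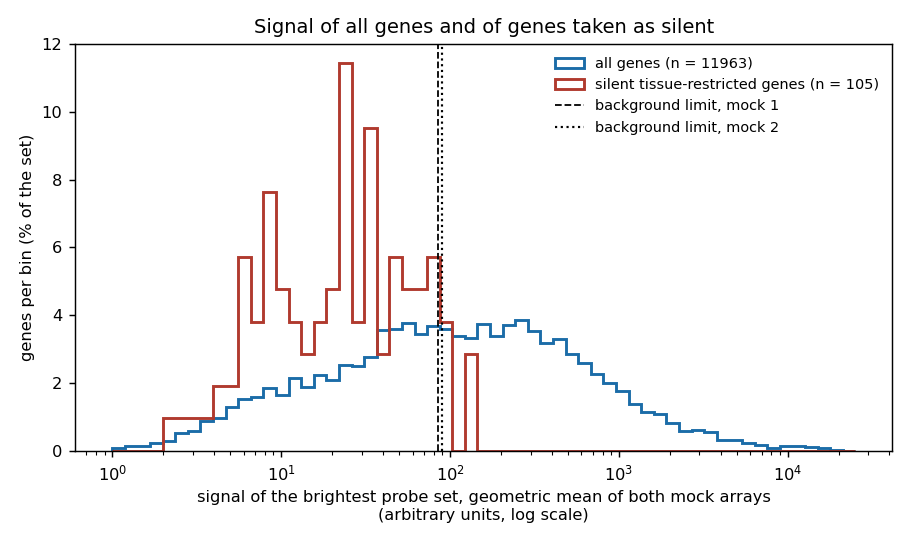
Share of genes (y axis, percent of each set per bin) by signal of the brightest probe set (x axis, geometric mean of both mock arrays, arbitrary units, log scale) for all 11963 genes and for the 105 tissue-restricted genes taken as silent. The silent genes lie mostly under the limits at 84.4 and 90.2 (vertical lines), and the brightest of all genes, RPS10, reaches 18237 and 18145.

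The brightest genes made ribosomes, filaments and glycolytic enzymes. RPS10, a protein of the small ribosomal subunit, led with 18237 and 18145 on mock arrays 1 and 2, followed by the elongation factor EEF1A1 with 15773 and 17663. GAPDH, a glycolytic enzyme, had 15970.0 and 16635 and beta-actin (ACTB) 16671 and 15272. The means of EEF1A1, GAPDH and ACTB differed by less than the arrays did for EEF1A1 or ACTB, so these neighbours in the order are not told apart. Among the 30 brightest genes, 16 encoded ribosomal proteins, and among the 100 brightest 46 did. The others of the top 30 included TUBA1B (16104 and 15438), TUBA1C (14397 and 12441) and TUBB (13562 and 13739), which form microtubules, and TPT1, the translationally controlled tumour protein, with 14131 and 15466. The peptidyl-prolyl isomerase PPIA reached 14928 and 13526, the ferritin light chain FTL, which stores iron, 10519 and 14322, and the actin-binding peptide TMSB10 10779.5 and 13332. Probe sets whose name ends in _x_at, which share probes with other genes, gave 20 of the 30 brightest genes and 37.0% of the 100 brightest, against 7.36% of all genes.

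HUWE1, a ubiquitin ligase, had probe sets that disagreed. It took rank 5 through an _x_at probe set at 15686 and 16193, while its other 3 probe sets read 1095 and 1204, 6.6 and 47.1, and 3.8 and 28.3. The rank of HUWE1 therefore rests on 1 of its 4 probe sets, and whether shared probes gave that signal was not tested. Without _x_at and _s_at probe sets, the brightest genes were RPS23 (12860.4 and 13791), RPL8 (11457 and 12316), CFL1, which severs actin filaments (10943 and 12593), RPS3 (10697 and 11825) and the galectin LGALS1 (10197 and 12117). S100A6, a small calcium-binding protein, came at rank 7 in that order with 10189.5 and 10761.

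Of the 37 cytosolic ribosomal proteins measured, 35 were above the limit and all 35 of these lay in the top 10%. The median percentile of the list was 99.6, against 50 for all genes. RPL3L, a muscle-restricted copy of RPL3, was near background at 26.2 and 21.3, while RPL3 itself had 12805 and 13092. RPLP2 was mixed at 73.6 and 93.6, and the acidic stalk protein beside it, RPLP1, had 9906 and 10178. Probe sets with several symbols were left out, and 37 of the 52 listed genes had one with 1 symbol. The reading of RPLP2 therefore need not be the level of its RNA. The messages of such genes are known to begin with a C and a run of pyrimidines, a feature through which their translation is coupled to growth signals. A C followed by at least 4 pyrimidines (C or T) stood at the annotated start of 42.05% of the 88 top-100 genes with a promoter entry, against 4.95% of the 9437 protein-coding genes with one. Of the 40 ribosomal protein genes among those 88, 27 had it (67.5%), and of the other 48 genes 10 did (20.8%), among them EEF1A1 and TPT1. The windows below are shown because they carry this feature on the brightest genes of the arrays: 10 bases before the start and 15 from it, 5′ to 3′ on the gene's strand, from RefSeq on GRCh38.p14. Capitals mark the C and the pyrimidines that follow.
EEF1A1 (chr6:73521018-73521042, minus strand): cgtgaacgttCTTTTTCgcaacggg
TPT1 (chr13:45341169-45341193, minus strand): ctgagtcggcCTTTTCCgcccgctc
RPL41 (chr12:56116623-56116647, plus strand): cttcgcctttCTCTCggccttagcg
RPS6 (chr9:19380222-19380246, minus strand): gaagttggccCTCTTTTCCgtggcg
RPL12 (chr9:127451392-127451416, minus strand): cgatttccggCCTCTCggctttcgg
RPS12 (chr6:132814559-132814583, plus strand): cggatgaggcCTCTTTCCCTgccgc
RPS23 (chr5:82278340-82278364, minus strand): cggtgcttctCTCTTTCgctcaggc
RPS19 (chr19:41860245-41860269, plus strand): ccccgtcgttCCCTTTCCCCTggct
The runs were 5 bases long in RPL41 (14315 and 16175), 7 in RPS23 (12860.4 and 13791) and 11 in RPS19 (12827 and 14826). The 8 genes were chosen after the match was seen. A match describes the letters at an annotated start and nothing about how the message was translated here.

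Metallothioneins, cysteine-rich proteins that bind zinc and copper, were also among the brightest genes. Of 9 measured, 6 were above the limit (66.7%, against 51.3% of all genes) and all 6 were in the top 10%. The median percentile over the list was 97.0. MT2A had 14668 and 13828, MT1X 11033 and 8515, MT1H 9905 and 6369.7 and MT1E 6442 and 3871. MT1G with 2728 and 2180.1 and MT1F with 2391 and 1318 were lower, and all 6 read lower on mock array 2. MT3, the form known from brain, had 29.4 and 71.1 and MT4, known from stratified epithelium, 30.2 and 11.4, both near background, and MT1M was at 3.9 and 3.9. The brightest probe set of each of the 6 was an _x_at one, which shares probes with other genes. Without _x_at and _s_at probe sets 4 of the 9 were still measured and 0 were above the limit; MT1G then read 43.5 and 43.0. Metallothionein genes are known to respond to metals through short metal response elements. The core of that element (TGCGCNC or TGCACNC, both strands, each match counted, overlapping ones too) occurred 7 times in the 250 bases upstream of MT2A, 4 times upstream of MT1X and 8 times upstream of MT1H. MT4, near background, had 3 matches as well, and a TATA motif. At least 3 matches were found upstream of 2.07% of all 9437 genes. A share over the list is not given, since only 4 of the 9 had a promoter entry. The 3 brightest with an entry are shown, 5′ to 3′ on GRCh38.p14 from RefSeq, with each match in capitals; they lie next to each other's family members on chromosome 16.
MT2A (chr16:56608334-56608583, plus strand): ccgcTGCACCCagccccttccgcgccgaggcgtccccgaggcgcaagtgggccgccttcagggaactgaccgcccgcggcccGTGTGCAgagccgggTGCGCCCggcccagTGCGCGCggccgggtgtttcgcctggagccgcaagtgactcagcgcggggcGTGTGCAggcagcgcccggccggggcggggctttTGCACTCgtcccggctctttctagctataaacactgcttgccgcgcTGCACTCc
MT1X (chr16:56682220-56682469, plus strand): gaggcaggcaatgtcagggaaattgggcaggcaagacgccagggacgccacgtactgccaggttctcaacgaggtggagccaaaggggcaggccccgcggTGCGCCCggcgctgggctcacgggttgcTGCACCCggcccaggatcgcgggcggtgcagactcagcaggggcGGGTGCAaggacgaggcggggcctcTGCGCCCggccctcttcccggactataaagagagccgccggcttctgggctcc
MT1H (chr16:56669564-56669813, plus strand): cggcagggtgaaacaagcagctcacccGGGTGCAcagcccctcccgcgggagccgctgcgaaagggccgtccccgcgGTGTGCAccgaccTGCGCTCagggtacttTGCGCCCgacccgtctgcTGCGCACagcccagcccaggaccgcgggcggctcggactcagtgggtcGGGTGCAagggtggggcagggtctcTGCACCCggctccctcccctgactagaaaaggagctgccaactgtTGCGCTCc

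Of 33 mesenchymal and fibroblast genes measured, 17 were above the limit (51.5%, against 51.3% of all genes), 3 were mixed and 13 near background, with a median percentile of 50.5. Vimentin (VIM), the filament protein of mesenchymal cells, had 13725 and 13664 and rank 16 of all genes. CD44, a hyaluronan receptor, had 4219.8 and 4697, the caveolar coat protein CAV1 3288 and 3411 and SPARC, a collagen-binding matrix protein, 3188 and 3287. The transcription factors SNAI2 (755 and 684) and ZEB1 (581 and 451), which repress epithelial genes, were above the limit. TWIST1 was mixed at 93.0 and 86.8, and SNAI1 (9.3 and 54.6) and ZEB2 (36.0 and 26.7) were near background. N-cadherin (CDH2) had 291 and 489.7, endoglin (ENG) 337 and 400.5 and smooth muscle actin (ACTA2) 442 and 587. None of these 3 differed between the arrays by 2-fold.

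The 13 genes near background included several used to define fibroblasts. The PDGF receptors PDGFRA and PDGFRB, markers of fibroblasts and pericytes, had 4.1 and 5.3 and 13.6 and 13. The fibrillar collagen genes COL1A2 (40.2 and 69.3) and COL3A1 (36.4 and 20.7) were under the limit, as were the fibroblast protease FAP (34.9 and 31.2) and the proteoglycan LUM (1.4 and 8.6). S100A4, often called fibroblast-specific protein, reached only 49.3 and 89.7, and TAGLN, an actin-binding protein of contractile cells, 28.6 and 51.9. NT5E, a surface nucleotidase of mesenchymal cells, had 13.6 and 20.6. Other fibroblast genes were above the limit: the surface protein THY1 (111 and 105), the fibrillin FBN1 (214 and 356), the collagen prolyl hydroxylase P4HA2 (551 and 842) and the matrix protein TNC. The proteoglycan DCN was mixed at 96.1 and 81.5, as was the cadherin CDH11 at 239.7 and 21.1. COL1A1 counted as above the limit through an _x_at probe set at 156 and 211, while its other 3 probe sets lay between 6.2 and 49.3. Fibronectin (FN1), the matrix glycoprotein, was in the top 10% but unequal between the arrays, with 1932 and 5810.2. The same inequality appeared on the next 4 of its probe sets, at 1869 and 5529, 1648 and 4506, 1344 and 4930, and 176 and 628. LOX, which cross-links collagen, had 616 and 2853, and its other 2 probe sets, 453 and 1735 and 218 and 583, were higher on mock array 2 as well.

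Epithelial genes were mostly near background. Of 28 measured, 4 were above the limit (14.3%), 3 mixed and 21 near background, with a median percentile of 16.7. E-cadherin (CDH1), which joins epithelial cells, read 28.4 and 29.3 on its brightest probe set and 4.1 and 2.0 on the other. The adhesion molecule EPCAM had 3.8 and 6.7, KRT19 1.7 and 2.3, KRT14 3.0 and 5.9 and the splicing factor ESRP1 10.4 and 31.3. The exceptions were the simple-epithelial keratins KRT18 (2482 and 2542) and KRT8 (485 and 609), which pair into filaments, the desmosomal PKP3 (208 and 229) and LAD1 (166 and 133). KRT18 was the only epithelial gene of the list in the top 10%, brighter than 97.1% of genes.

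**Figure D2:**
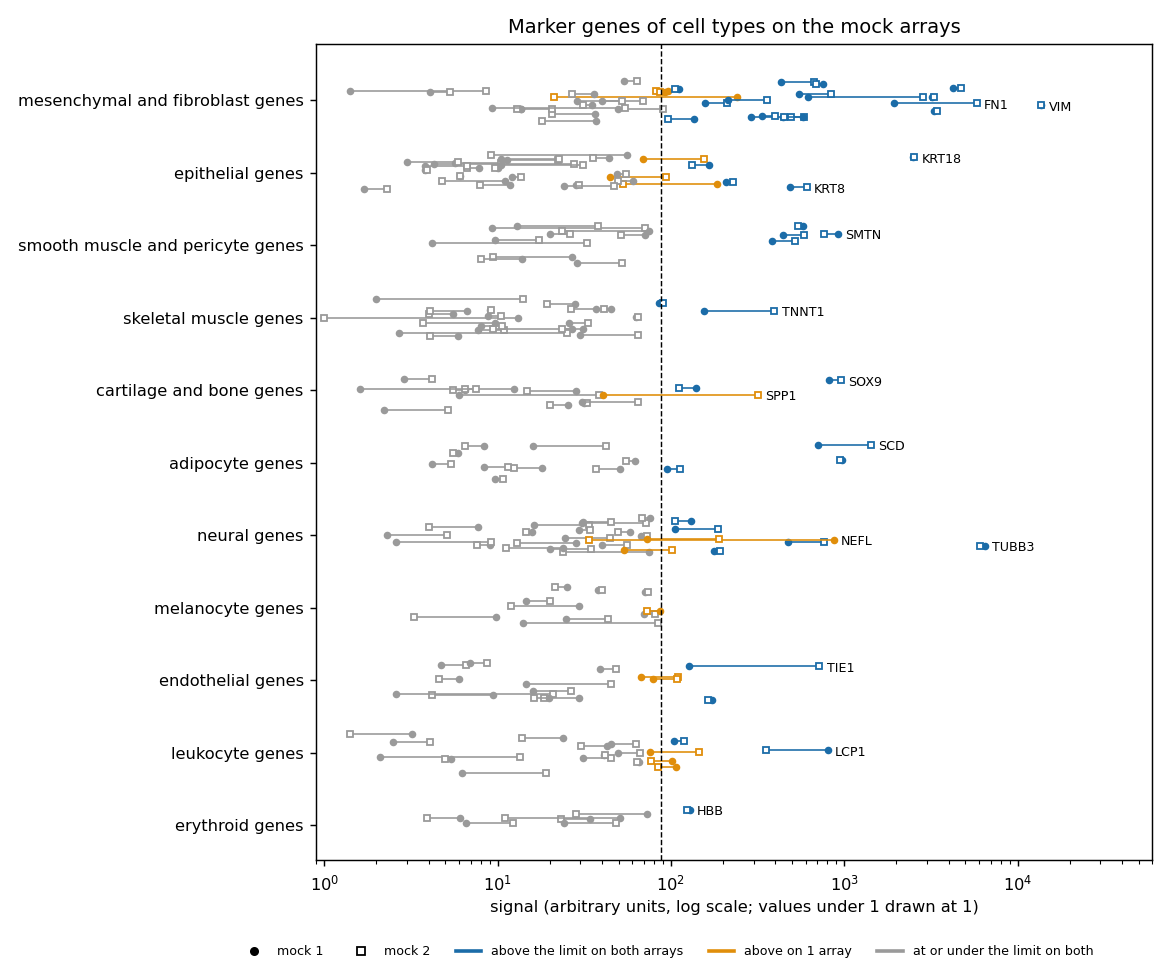
Signal of each measured marker gene (x axis, arbitrary units, log scale) in 11 cell type lists (y axis), with mock array 1 as a filled circle joined to mock array 2 as an open square, and the background limit as a dashed line at the geometric mean of both arrays' limits. Blue marks genes above the limit on both arrays, orange those above it on 1 and grey those at or under it on both; VIM, FN1 and KRT18 lie to the right, and most endothelial, leukocyte, muscle and melanocyte genes lie under the line.

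Markers of other cell types were at background apart from a few genes per list. Over the cell type lists other than the mesenchymal and epithelial ones, 0% (melanocyte) to 28.6% (smooth muscle and pericyte) of genes were above the limit. The share of all genes was 51.3%. Of 14 endothelial genes 2 were above the limit and 10 near background, among them CDH5 (9.4 and 4.2), KDR (2.6 and 21) and VWF (16.1 and 26.4). ROBO4 had 172 and 163, and TIE1, an endothelial receptor kinase, had 126 and 719, high on mock array 2 only. Of 17 leukocyte genes 2 were above it: the actin-bundling LCP1 (800.5 and 351), which many tumour lines also express, and CSF1R (104 and 119). CSF1R was still within the range of the silent genes. PTPRC, the pan-leukocyte phosphatase CD45, was at 6.2 and 19.1, and CD14 at 2.1 and 13.4. Of 7 erythroid genes 1 was above it, HBB with 128 and 124; the list shares HBB, HBD, ALAS2 and EPB42 with the genes that set the limit.

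The muscle, nerve and pigment lists gave the same picture. Of 21 skeletal muscle genes 19 were near background, of which CKM and MYH2 are also among the genes that set the limit. They included the determining factors MYOD1 (8.8 and 10.5), MYF5 (2.7 and 25) and MYOG (37.2 and 26.6), and DES (26.9 and 9.4). The troponin TNNT1 had 154 and 395, and MB, myoglobin, lay at the limit with 85.4 and 90.4. Smooth muscle and pericyte genes had 4 of 14 above the limit: SMTN (923 and 761), MCAM (575 and 539), MYLK (385 and 522) and ACTA2, whose values stand above, while CNN1 (4.2 and 32.9) and MYH11 (9.6 and 17.3) were near background. Of 26 neural genes 5 were above the limit, 3 mixed and 18 near background, and 1 of the last, GFAP, is also among the genes that set the limit. With the limit at the 99th percentile of the silent genes 3 were above it. NCAM1 (178 and 192), SNAP25 (106 and 186.5) and BEX1 (131 and 106) were above it as reported, and SCG2 (72.8 and 190) and UCHL1 (53.9 and 101) were mixed. TUBB3, a tubulin named for neurons, was in the top 100 with 6507 and 6066 on an _x_at probe set, which shares probes with other genes. ENO2, neuron-specific enolase, had 471 and 766. The neurofilament NEFL read 870.0 and 33.5, high on mock array 1 only, and another of its probe sets read 355 and 48.0. No melanocyte gene of 10 was above the limit on both arrays, with MITF at 69.7 and 81.3 and MLANA at 24.8 and 43.6.

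Among cartilage and bone genes 10 of 13 were near background, with COL2A1 at 28.5 and 14.7. SOX9, the chondrocyte regulator, was the brightest at 816 and 959, and ACAN was also above the limit at 140 and 112. Among adipocyte genes 9 of 12 were near background, with the fat hormone ADIPOQ at 18.0 and 12.5 and PPARG at 5.9 and 5.5. The exceptions were genes used in lipid metabolism by many cells, SCD (702 and 1429) and PNPLA2 (969 and 950.2), and CIDEC (94.3 and 113). CIDEC was still within the range of the silent genes.

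Of 15 tubulins 10 were above the limit (66.7%, against 51.3% of all genes) and 9 in the top 10%. TUBB4B had 9391 and 8514 and TUBB6 4753 and 4608, while TUBB2B (4.0 and 20.4) and TUBB1 (6.2 and 27.1) were near background. Of 18 keratins 13 were near background and 4 above it; KRT10 had 1709.8 and 1686 beside KRT18. The nuclear lamin LMNA had 1754 and 1666, LMNB2 1066 and 799 and LMNB1 344 and 233. Of 10 tropomyosins and myosins 9 were above the limit (90%), led by the light chain MYL6 (4894 and 4425), with the nonmuscle heavy chain MYH9 at 1089 and 1213. TPM1 was higher on mock array 2, at 1438 and 3259. The muscle actins ACTA1 (9.7 and 3.7) and ACTG2 (70.8 and 51.3) were near background beside ACTB.

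Of 17 S100 proteins 5 were in the top 10%: S100A6, S100A10 (4251 and 3975), S100A2 (1655 and 2860.2), S100A11 (2069 and 2147) and S100A13 (853 and 1428). Another 11 were near background, including the inflammatory S100A8 (19.2 and 16.3) and S100A9 (9.0 and 28.7). Of 11 annexins, which bind membranes in the presence of calcium, 9 were above the limit (81.8%, against 51.3% of all genes). ANXA2 had 12597 and 13339, and ANXA1 6357 and 5415 and ANXA5 3646 and 2969.7. ANXA13, an intestinal form, was near background at 11.1 and 11.7. Among galectins, caveolins and syndecans, 8 of 17 were above the limit (47.1%), a share under that of all genes. LGALS1 and CAV1 were followed by the heparan sulfate proteoglycan SDC1 (2246 and 2547).

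Of 23 integrin chains 11 were above the limit (47.8%, close to the 51.3% of all genes) and 6 in the top 10%. ITGB1, the beta chain shared by most matrix-binding integrins, had 3894 and 4296. Its alpha partners followed: ITGA6 (2188 and 1639) and ITGA3 (1138 and 1290.3), which bind laminin, ITGA5 (1014 and 1400.4), which binds fibronectin, and ITGA2 (489 and 1966), which binds collagen. ITGA3, a target of the siRNA vectors of the series, was thus brighter than 92.8% of genes, and it differed by less than 1.5-fold between the arrays. ITGA2 was higher on mock array 2. ITGB5 (1053 and 1667) and ITGAV (493 and 477), partners in a vitronectin receptor, were above the limit, with ITGB3 just above it at 99.1 and 111. ITGB4 (32.6 and 41.2), the other beta partner of ITGA6, was near background, as were ITGA1 (9.5 and 10.1) and the leukocyte chains ITGB2 (40.9 and 41.8) and ITGAL (27.5 and 32.8). ITGA4 was read on mock array 1 only, at 183 and 20.4. Signals of different chains cannot be added into receptor amounts.

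Of 32 collagen chains 9 were above the limit (28.1%, against 51.3% of all genes) and 22 near background. COL6A3, of the microfibrillar collagen VI, had 4099.5 and 5794, the transmembrane COL13A1 1180.4 and 1186, and the basement membrane chains COL4A1 and COL4A2 1093 and 922 and 1082 and 1019. These 4 were the collagens of the top 10%. COL6A1 (385 and 271) and COL6A2 (205 and 135), which assemble with COL6A3, were above the limit, whereas COL5A1 (77.3 and 82.2) and COL5A2 (43.8 and 47.3) were under it. Of 9 laminin chains 6 were above it (66.7%), led by LAMB3 (2888 and 3280.3) and LAMC1 (1271 and 2126). LAMA4 had 201 and 511 and LAMB1 343 and 285, and LAMA1 (36.0 and 60.9) and LAMA2 (34 and 38.4) were near background.

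Of 20 matrix metalloproteinases 6 were above the limit and 14 near background. With the TIMPs and RECK included, 9 of 25 were above it (36%, against 51.3% of all genes). With the limit at the 99th percentile of the silent genes this was 4 of 25. MMP14, which encodes MT1-MMP and is the other target of the siRNA vectors, was the brightest with 1971 and 3064. Its other 3 probe sets read 1283 and 2238, 760 and 1324, and 684 and 1203, each higher on mock array 2. MMP2, the gelatinase whose proform MT1-MMP activates together with TIMP2, had 429.5 and 672, and TIMP2 258 and 364. MMP9, the other gelatinase, had 127 and 832, close to the limit on mock array 1 and well above it on mock array 2. TIMP1 had 2018 and 2544. The secreted collagenases MMP1 (60 and 32.8), MMP8 (54.2 and 69.9) and MMP13 (7.7 and 5.5) were near background, as were the other membrane-type enzymes MMP15 (4.7 and 9.0), MMP16 (54.5 and 53.1), MMP17 (37.8 and 30.8) and MMP24 (42.6 and 65.2). Among the membrane-type genes measured, MMP14 and MMP25 (115 and 129.7) were above the limit. MMP25 was still within the range of the silent genes on mock array 1.

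The plasminogen system was bright at its cell-surface end. PLAU, the urokinase protease, had 4263 and 5370.0 and its receptor PLAUR 1891 and 1842, both in the top 10%. PLAT, the tissue-type activator, had 378 and 1683, higher on mock array 2. The collagen chaperone SERPINH1 had 1036 and 1133 and the protease inhibitor SERPINE2 965 and 900.3. Plasminogen itself (PLG), a liver gene, was at 7.1 and 3.1, and the liver serpins SERPINA1 (27.3 and 39.2) and SERPINC1 (8.8 and 4.0) were near background. Over the list, 7 of 17 were above the limit (41.2%, against 51.3% of all genes).

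Cadherins were the dimmest adhesion family. Of 27 cadherins and desmosomal relatives, 22 were near background and 2 above the limit (7.41%, against 51.3% of all genes). DSG2, a desmoglein, had 1089.7 and 1092 and CDH2, given above, was next. CDH11, a cadherin of mesenchyme, was above the limit on mock array 1 only, and its other probe set read 158 and 4.5.

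**Figure D3:**
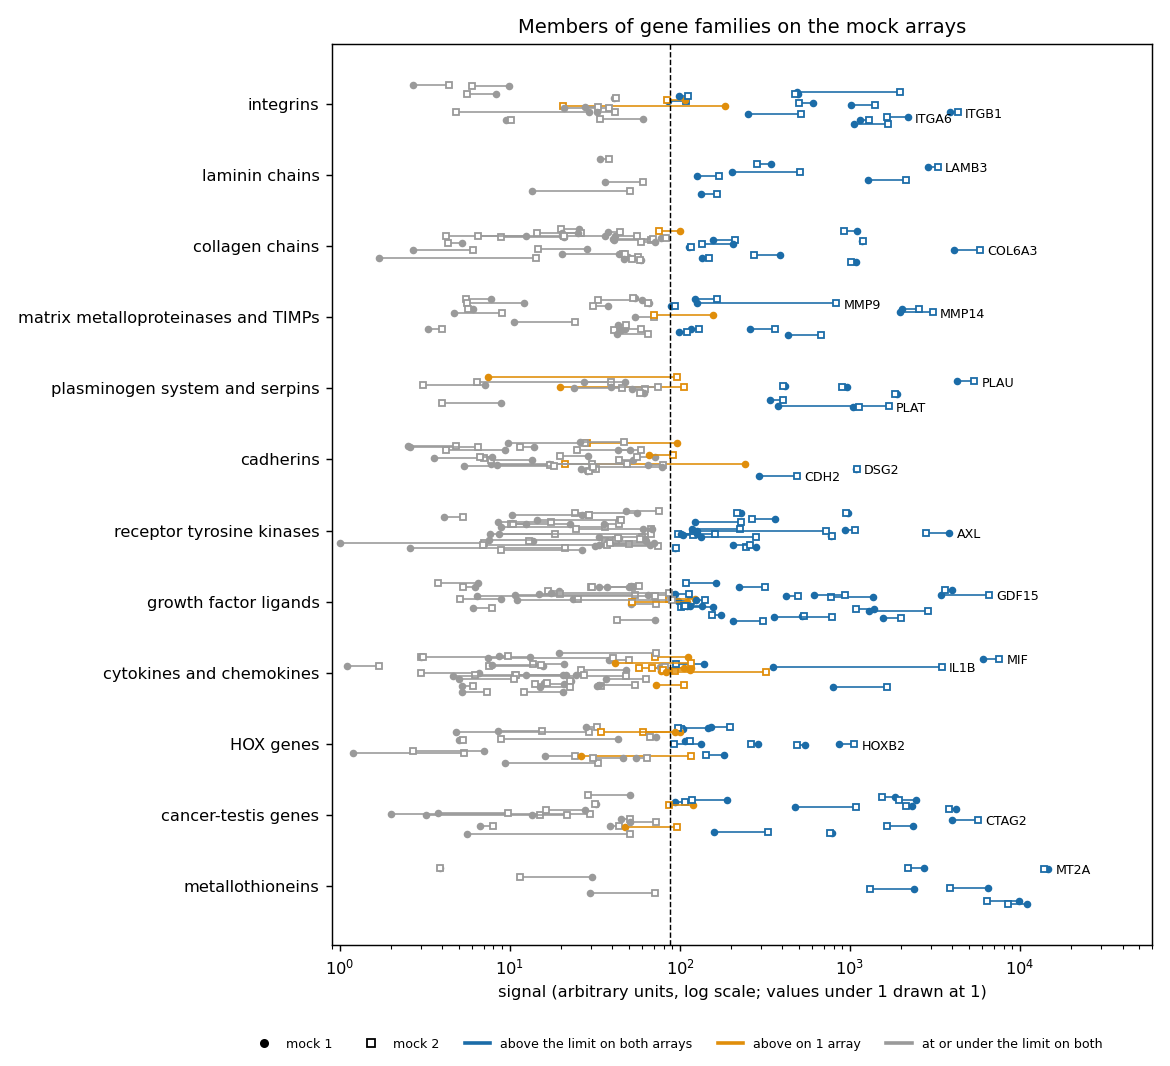
Signal of each measured member (x axis, arbitrary units, log scale) of 12 gene families (y axis), with mock array 1 as a filled circle joined to mock array 2 as an open square, the background limit as a dashed line, and colours as for the marker genes. In most families a few members lie far to the right, such as MT2A at 14668 and 13828, and many at or under the limit; the long joining lines of IL1B, MMP9, PLAT, ITGA4 and CDH11 show members that the arrays read differently.

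Of 47 receptor tyrosine kinases 16 were above the limit (34.04%, against 51.3% of all genes) and 31 near background. With the limit at the 99th percentile of the silent genes 9 were above it. AXL, the receptor for GAS6, was far ahead with 3834 and 2781. EPHA2 (939.5 and 1075) and MET, the receptor for HGF (971 and 940.1), were also in the top 10%, and RYK had 777 and 787. EGFR (281 and 244) and FGFR1 (229 and 217) were above the limit at lower signals, ERBB2 had 133 and 279.6 and IGF1R 117 and 224. KIT (8.9 and 36.2), INSR (26.5 and 29.2), ERBB3 (37.9 and 39.2) and, as given above, both PDGF receptors were near background.

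Among 41 growth factors 21 were above the limit, a share of 51.2% close to that of all genes. With the limit at the 99th percentile of the silent genes 13 were above it. GDF15, a stress-induced member of the TGF-beta family, had 3441 and 6600.0 on an _x_at probe set and 3.2 and 7.7 on its other one. HDGF had 3951 and 3616, PDGFC 1566 and 1988 and VEGFA, the angiogenic factor, 1285 and 2887. The other 3 probe sets of VEGFA read 955 and 1931, 730 and 1849 and 456 and 1045, all higher on mock array 2. GAS6, the ligand of AXL, had 1383 and 1078, and the EGFR ligands HBEGF and TGFA had 1358 and 775 and 522 and 534. HGF, the ligand of MET, was mixed at 110.5 and 52.4. EGF (14.9 and 19.6), EREG (8.8 and 5.1), BTC (6.5 and 3.8) and BMP4 (6.2 and 5.3) were near background.

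RAS and MAPK pathway genes were above the limit in 21 of 27 (77.8%, against 51.3% of all genes), with a median percentile of 73.0. Genes known to be induced by ERK signalling led: PHLDA1 had 2296 and 2632, FOSL1 2507 and 2295 and the phosphatase DUSP5 1476 and 1635. The feedback inhibitors SPRY2 (460.0 and 642) and SPRY4 (368 and 283), ETV5 (808 and 665) and DUSP4 (296 and 643) were also above it. DUSP6, a phosphatase of ERK, was near background at 12.8 and 30.1, as was EGR1 at 83.2 and 71.4. Of the core kinases MAP2K1 had 1502 and 1219.8, MAP2K2 740.5 and 598, ARAF 432 and 400.2 and MAPK3 146 and 138, and HRAS had 597 and 439.7.

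Cytokines and chemokines were mostly near background, with 4 of 41 above the limit (9.76%), 8 mixed and 29 near background. On either array alone 8 were above it, and 9 with the limit at the 90th percentile of the silent genes. MIF, a cytokine many cells store, had 6080.1 and 7530.1. CXCL8, interleukin 8, had 795 and 1647 and IL1B 350.0 and 3451, both higher on mock array 2, and the other probe set of IL1B read 253 and 2389. IL11 was close to the limit at 138 and 95.3, and IL24 was mixed at 82.3 and 319.7. All 8 CC chemokines measured were near background, including CCL2 (6.6 and 3.0) and CCL5 (38.1 and 49.8), as were TNF (19.4 and 72.1), IL1A (36.7 and 63.0) and IFNB1 (3.0 and 3.1).

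HOX genes, which mark position along the body axis, were above the limit in 9 of 24 (37.5%, against 51.3% of all genes). With the limit at the 99th percentile of the silent genes this was 5 of 24. From the HOXB cluster, HOXB2 had 857 and 1059.7, HOXB7 543 and 489 and HOXB5 182 and 142. From HOXC, HOXC6 had 286 and 259.9 and HOXC10 152 and 197. HOXB and HOXC genes were above the limit in 4 of 9 and 4 of 7, HOXD genes in 1 of 7 (HOXD1, 146 and 97.7), and the only HOXA gene measured, HOXA2, was at 1.2 and 5.4. HOXB13 (5.0 and 5.3), HOXC13 (43.0 and 8.9) and HOXD13 (55.2 and 64.0), the last genes of their clusters, were near background.

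Some genes normally restricted to testis were bright in this line. Of 25 cancer-testis genes 11 were above the limit (a smaller share than the 51.3% of all genes), 2 mixed and 12 near background, and 6 were in the top 10%. CTAG2 had 3982 and 5632 and MAGEA6 4199.8 and 3810.1, followed by MAGEB2 (2318 and 2139.9), MAGEA12 (2456 and 1928), SSX1 (2342 and 1650.5) and ACTL8 (1832 and 1535). The other probe set of CTAG2 read 268 and 236 and that of SSX1 200 and 177, so these genes were above the limit on both. MAGEA, SSX and CTAG genes have near-identical copies, and the probes cannot always tell them apart. PRAME had 474 and 1089.9 and MAGEA1 159 and 327, whereas MAGEA4 (13.5 and 21.6), MAGEA10 (6.7 and 7.9) and MAGEC1 (38.8 and 43.9) were near background. SYCP1, of the meiotic synaptonemal complex, was at 45.1 and 51.1, and BRDT at 2.0 and 29.7.

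Antigen presentation genes were above the limit in 14 of 18 (77.8%, against 51.3% of all genes). With the limit at the 99th percentile of the silent genes this was 10 of 18. B2M, the light chain of class I molecules, had 5244 and 5946, and HLA-B 335 and 599, HLA-C 258 and 904 and HLA-E 492 and 556. HLA-C was higher on mock array 2. Of 8 class II genes, the invariant chain CD74 included, 5 were above the limit and 3 near background. HLA-DPB1 (199 and 142) and HLA-DMB (152 and 105) were above it, as were HLA-DMA (105 and 113), HLA-DOA (92.9 and 114) and HLA-DPA1 (89.5 and 118). HLA-DMA, HLA-DOA and HLA-DPA1 were still within the range of the silent genes, as was HLA-DMB on mock array 2. HLA-DRA (19.1 and 8.2), HLA-DQA1 (6.8 and 50.3) and CD74 (27.3 and 20.6) were near background, and the class II regulator CIITA was mixed at 57.5 and 115.

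Nuclear receptors and WNT genes were dim, with no member in the top 10%. NR3C1, the glucocorticoid receptor, was the brightest of 36 nuclear receptors at 905 and 815, and 22 were near background, among them ESR1 (81.4 and 65.8) and PGR (15.3 and 6.5). Of the 36, 11 were above the limit (30.6%, against 51.3% of all genes), or 6 with it at the 99th percentile of the silent genes. VDR and RARB lay close to the limit at 97.3 and 123 and 108 and 116. Of 28 WNT and frizzled genes 9 were above it (32.1%). WNT5A had 352 and 492 and WNT6 358 and 321, the other 10 of 12 WNT ligands were near background, and FZD6 led the receptors with 374 and 370.0.

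Of 29 glycolytic isozymes and transporters 19 were above the limit (65.5%, against 51.3% of all genes) and 13 in the top 10%. Their median percentile was 84.3. Without _x_at and _s_at probe sets 6 of 15 were above it (40.0%), against 41.6% of all genes then measured. Below GAPDH stood LDHA (11156 and 11196), ENO1 (9226 and 9750.0), ALDOA (8366 and 9814), LDHB (7696 and 7376), PGAM1 (6707 and 7868) and PKM (6967 and 7022). Of the tissue-restricted isozymes, PGAM2 and ENO3 of muscle (3.1 and 5.8 and 57.1 and 42.8), PKLR of liver and red cells (5.0 and 12.8) and PGK2 of testis (25.7 and 22.4) were near background. ENO2, whose values stand above, was over the limit, and ALDOC (82.9 and 1048) and the testis form LDHC (119 and 86.4) were mixed. HK1 (1781 and 2269) was brighter than HK2 (529 and 437), and the glucose transporter SLC2A1 had 743 and 708. Of 18 cholesterol synthesis genes 16 were above the limit (88.9%), led by FDPS (781 and 1238) and IDI1 (739 and 1210.0).

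All 45 cell cycle and DNA replication genes were above the limit, against 51.3% of all genes, and 21 were in the top 10%. The lowest of them, CDT1, which licenses replication origins, had 150.3 and 222 and was still brighter than 61.1% of genes. TYMS, which makes thymidylate, had 5351 and 5355, and RRM2, of ribonucleotide reductase, 4121 and 2949. The mitotic regulators CDC20 and CCNB1 had 2862 and 1659.6 and 1904 and 2064, and the replicative helicase subunit MCM2 2052 and 1718. MKI67, the proliferation antigen, had 636 and 503. Among cyclins and their kinases, CDK4 had 2706 and 2778 and CCND1 1187 and 1028, and the inhibitor CDKN1A, p21, 1500.0 and 1553. CDKN2A, which HT1080 is known to have lost, was near background at 64.0 and 49.9, as were CDKN2B (1.9 and 3.6), CCND2 (29.5 and 32.9) and CDK6 (19.5 and 44.2). In the BCL2 family, MCL1 was the brightest at 3658 and 3054, above BCL2L1 at 427 and 308, and BCL2 was mixed at 68.6 and 108.

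Promoters of cell cycle genes are known to carry pairs of CCAAT boxes, which the factor NF-Y binds. At least 2 CCAAT matches (both strands, 250 bases upstream) were present in 18 of the 39 cell cycle promoters with an entry (46.2%), against 12.2% of all 9437. At least 1 was present in 69.2% against 35.6%. The element TTTGAA or TTCGAA, on either strand between 100 bases before and 50 after the start, was present in 30.8% against 4.97%. The 120 bases upstream of 4 of these genes are shown as examples, chosen after their matches were seen, 5′ to 3′ on the gene's strand from RefSeq on GRCh38.p14. Capitals mark CCAAT or its reverse complement.
CCNB1 (chr5:69167030-69167149, plus strand): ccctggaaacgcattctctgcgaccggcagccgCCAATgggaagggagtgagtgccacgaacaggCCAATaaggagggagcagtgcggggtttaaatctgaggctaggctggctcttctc
CCNB2 (chr15:59105026-59105145, plus strand): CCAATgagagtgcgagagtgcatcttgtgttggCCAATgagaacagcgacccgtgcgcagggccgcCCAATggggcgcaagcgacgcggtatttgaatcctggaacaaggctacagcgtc
CDC20 (chr1:43358861-43358980, plus strand): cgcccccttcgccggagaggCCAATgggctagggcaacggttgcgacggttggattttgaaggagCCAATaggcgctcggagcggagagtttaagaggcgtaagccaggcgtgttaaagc
TOP2A (chr17:40417897-40418016, minus strand): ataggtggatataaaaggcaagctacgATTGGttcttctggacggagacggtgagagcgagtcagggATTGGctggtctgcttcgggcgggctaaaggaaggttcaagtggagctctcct
CCNB2, which had 3 matches in this stretch, read 1318 and 963, and TOP2A, the topoisomerase that untangles chromosomes, read 1134 and 1698. A match is a description of letters and not of binding.

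Promoter sequence also varied with signal over all genes. A CpG ratio (observed over expected CG) above 0.6 in the 300-base window was found in 56.8% of genes of decile 4 by signal, 81.5% of decile 6 and 89.0% of decile 10, the brightest, against 72.2% of all genes. The sequence TATAAA between 35 and 21 bases upstream was found in 5.38% of decile 4, 1.01% of decile 7 and 2.85% of decile 10. Among the 100 brightest genes it reached 7.95%, 7 promoters, of which MT1X and MT2A are examples. Deciles 1 to 3 are not given, since fewer than 80% of their genes had an entry. The pyrimidine start was found in between 3.96% (decile 4) and 5.27% (decile 5) of deciles 4 to 9 and in 11.4% of decile 10.

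**Figure D4:**
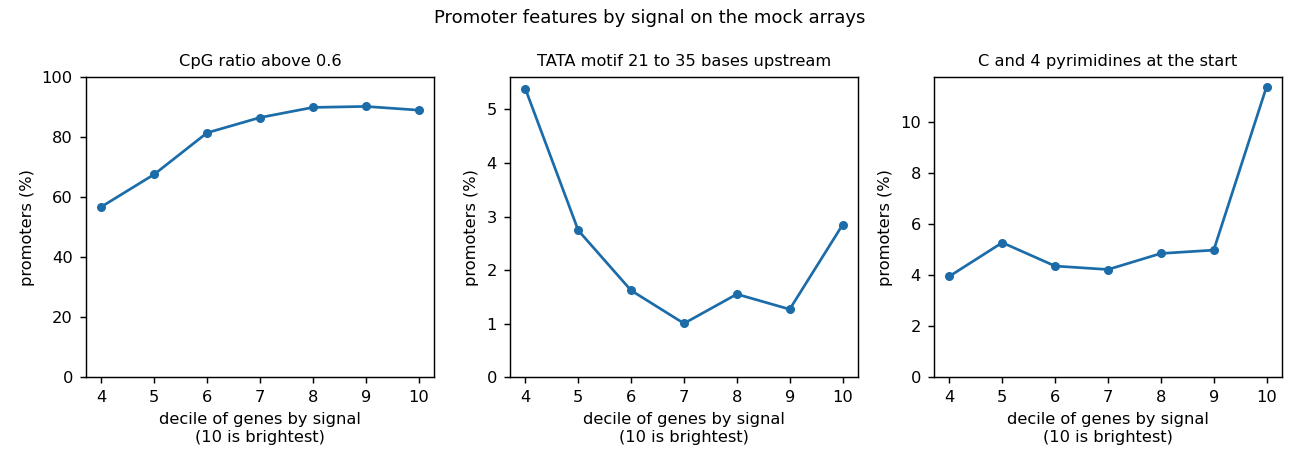
Share of promoters (y axes, percent) with a CpG ratio above 0.6 (left), a TATA motif 35 to 21 bases upstream (middle) and a C with 4 pyrimidines at the start (right), by decile of signal on the mock arrays (x axes, 10 is brightest). The CpG share is 56.8% in decile 4 and 89.0% in decile 10, the TATA share is lowest in decile 7 (1.01%), and the pyrimidine start stands out in decile 10 (11.4%).

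The arrays were close on most genes and apart on a few. Among the 6883 genes above the limit on at least 1 array, 133 (1.93%) were over 2-fold higher on mock array 2 and 64 (0.93%) on mock array 1, on the log2(signal + 32) scale, which understates folds of dim genes. By any amount 3356 (48.8%) were higher on mock array 2 and 3525 (51.2%) on mock array 1. With 1 array on each side these are differences between 2 arrays and no test exists. Beside the genes given above, the largest excess on mock array 2 was that of ALDOC, an aldolase of brain that low oxygen induces, at 82.9 and 1048. HSD11B1, which activates glucocorticoids, had 71.1 and 786, CEMIP, a hyaluronan-degrading protein, 103 and 694, and osteopontin (SPP1) 40.5 and 316. The fatty acid-binding protein FABP5 had the largest excess on mock array 1 after NEFL, at 1239 and 81.5. The amino acid transporter SLC38A1 (395 and 60), CPED1 (750.5 and 144) and the desaturase FADS2 (443 and 86.9) followed the same way.

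Several lists were displaced together between the arrays, and the 7 described here are not the only ones. Among 10 metalloproteinase, TIMP and RECK genes above the limit on at least 1 array, 9 were higher on mock array 2, with a median log2 difference of 0.34. Laminin chains were higher there in 5 of 6, with a median of 0.30. Tubulins were higher on mock array 1 in 8 of 11, with a median of -0.10. Of 25 hypoxia-induced genes above the limit on at least 1 array, 21 were higher on mock array 2 and 7 by over 2-fold, against the 48.8% and 1.93% of all genes, with a median log2 difference of 0.55 against -0.01 for all genes. Those 7 were ALDOC, LOX and VEGFA, given above, DDIT4 (203 and 876), NDRG1 (1670.2 and 3553), BNIP3L (613 and 1286) and MXI1 (334 and 712). ALDOC was under the limit on mock array 1 and counted through mock array 2, while 24 of the 25 were above it on both. Other genes of the list, such as PGK1 (4263 and 4728) and SLC2A1, differed by less than 1.5-fold. Of 17 interferon response genes, 16 were higher on mock array 2 and 5 by over 2-fold, with a median of 0.74. Those 5 were PSMB9 (58.5 and 302), IFI27 (26.1 and 161), IFITM1 (82.4 and 317), ISG20 (147 and 495) and PSMB8 (143 and 374). On mock array 1 alone 12 interferon genes were above the limit, and on mock array 2 alone 17. PSMB9, IFI27 and IFITM1 were under it on mock array 1 and counted through mock array 2. A gene counted in this way is higher on mock array 2 by the choice of genes, so the count and the median lean that way. Another 13 of the 30 interferon response genes measured were near background on both arrays, among them MX1 (44.3 and 55.3), OAS1 (32.2 and 75.7) and IFIT1 (12.3 and 73.3). Of 15 early response and inflammatory genes, 11 were higher on mock array 2, with a median of 0.41, and the 3 past 2-fold were IL1B, CXCL8 and NFKBIA (89.8 and 239). FOS (3.9 and 6.2) and PTGS2 (25.1 and 52.3) were near background.

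Cell cycle genes lay the other way. Of the 45, 36 were higher on mock array 1 and 9 on mock array 2, with a median of -0.31, and none passed 2-fold. FEN1 (1439 and 786) and MCM3 (1149.5 and 597) are examples, and TOP2A and AURKA (1102 and 1523) were among those higher on mock array 2. The 6 bright metallothioneins had a median of -0.50. Ribosomal proteins were higher on mock array 2 in 33 of 36, by a median of 0.15, which was 0.05 after quantile normalization. Cholesterol synthesis genes were higher on mock array 2 in 13 of 17, by a median of 0.24. The medians of all 7 lists kept their sign with offsets of 1 and 100, quantile normalization, the median probe set and, where it gave a value, without _x_at and _s_at probe sets, alternatives applied to the lists after seeing the data. The lists share genes, and the genes of a list vary together, so their counts are not independent observations. What set the arrays apart was not tested.

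**Figure D5:**
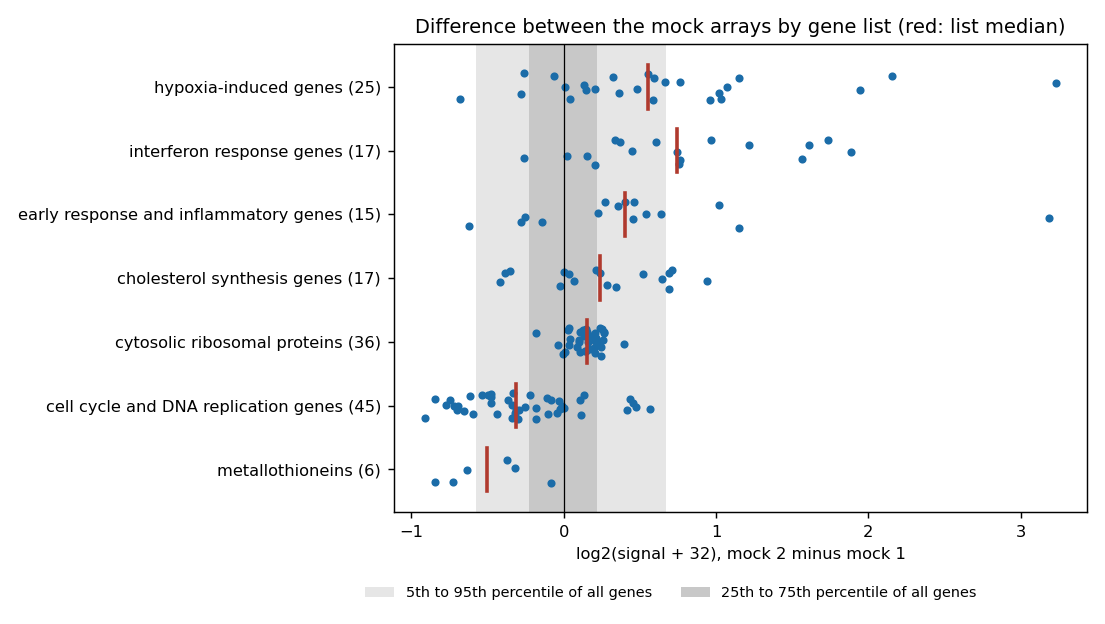
Difference of log2(signal + 32) between the mock arrays (x axis, mock array 2 minus mock array 1) for the genes of 7 lists above the limit on at least 1 array (y axis, number of genes in brackets), with the list median in red and the middle range of all genes as grey bands. Hypoxia and interferon genes lie mostly right of 0 with medians of 0.55 and 0.74, and cell cycle genes mostly left of it with a median of -0.31. Genes above the limit on mock array 2 only lie right of 0 by the choice of genes.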

How the data were processed

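Single-channel oligonucleotide arrays of total RNA were read from the deposited value table, using the columns of the 2 mock arrays. The deposited values are an intensity per probe set on a linear scale; the software behind them and its detection calls were not given in any source used here. Both mock arrays had a mean of 249.954 over their middle 96% of values, a common level set before the authors deposited them, and no further normalization was applied. Spiked hybridisation controls (18 probe sets) read between 208 and 15959. The arrays held the same value on 71 of 22283 probe sets, so each counts as 1 sample. The number of arrays limits the precision.

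Gene names came from the platform's annotation table: 19065 probe sets had 1 symbol, 1043 several and 2107 none, and 68 were controls. Of the 19065, 19053 matched a current gene record by identifier, with 0 symbols changed. Only singly named probe sets were used, and Y-linked genes and the X-inactivation centre are not printed. Values under 1 (91 and 66 on the arrays) were set to 1. A gene took its brightest probe set by mean log2 signal. This favours genes with several probe sets: 65.8% of the 4310 such genes were above the limit, against 43.1% of the 7653 with 1. The background limit is the 95th percentile of the silent genes' probe sets, of 120 genes listed and 105 measured. A difference between the arrays is that of log2(signal + 32), mock array 2 minus 1, past 2-fold where over 1 on that scale, among genes above the limit on at least 1 array.

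Promoters came from a RefSeq table on GRCh38.p14 (250 bases before to 50 after a gene's first listed start), which held 9437 of the 11554 protein-coding genes (81.7%). Shares are given only for sets with an entry for at least 80% of their genes.

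The text names the 30 brightest genes as a group, list members in the top 10%, the brightest of a list and defining members near background, and from the 15 largest differences each way; other members are named as examples. There were 11 marker lists and 32 family and pathway lists. The lists, members and rules were chosen with earlier results of these data known. The alternatives were other background limits, the median probe set, leaving out _x_at and _s_at probe sets, quantile normalization, other offsets, each array alone and any listed start. The counting steps were tested on simulated data. Python 3.11.15 with pandas 2.3.3 and numpy 2.4.6 was used, and matplotlib 3.10.9 for the plots.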

Additional observations from a re-analysis of the deposited data

How the results depend on the processing

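The number of genes above the background limit was 6623 with the limit at the 90th percentile of the silent genes, 5289 at the 99th, 5815 at a signal of 100, 7865 at the 95th percentile of the Bacillus controls (31.9 and 48.3), 5576 with the median probe set, 6469 with the mean of both arrays and 6139 after quantile normalization, against 6139 as reported. Without _x_at and _s_at probe sets it was 3482 of 8369 genes. Fewer genes were then measured, and the share above the limit was also lower, at 41.6% against 51.3% as reported. On 1 array alone it was 6487 to 6559. The number of lists, of 43, with a larger share above the limit than all genes was 16; it was 13 without _x_at and _s_at probe sets, 17 with the 90th or 99th percentile limit or the median probe set, and 16 to 20 on 1 array alone. Genes past 2-fold between the arrays numbered 197 as reported, 317 with an offset of 1, 80 with an offset of 100 and 124 without _x_at and _s_at probe sets. The share of CpG-rich promoters in decile 10 was 89.0%, 94.5% when any listed start could count, a choice made after seeing the data, and 88.5% to 90.02% on 1 array alone. Over the lists, the count of members above the limit moved past 1.5 times its reported value in 60 combinations of list and alternative and stayed within it in 198. Without _x_at and _s_at probe sets 4 lists fell from a larger to a smaller share than all genes (41.6%): metallothioneins (0 of 4), actins (2 of 6), glycolytic genes (6 of 15) and antigen presentation (4 of 11). The mesenchymal list did so with the median probe set (14 of 33, against 46.6%) and with mock array 2 alone (17 of 33, against 54.2%). The integrin, growth factor, galectin, interferon and early response lists rose to a larger share under at least 1 alternative. The limit of detection is set by the silent genes: a gene near background had a signal no higher than theirs, which does not show that its RNA is absent. No paired analysis was possible because only 1 group was described and no result comes from a test.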

Other observations

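Several of the 100 brightest genes belong to no list above. TMEM158, a membrane protein first described as induced by RAS during senescence, had signals of 6262 and 8007 on mock arrays 1 and 2, rank 75 of 11963 genes and rank 17 without _x_at and _s_at probe sets. The protease CAPN2, which acts on focal adhesions, had 6150 and 6398. The chaperonin subunits CCT4 (7347 and 6896) and CCT5 (5884 and 5899.9), which fold actin and tubulin, and the chaperone HSP90AB1 (10171 and 9460) were in the same range. PRDX1, which removes peroxide, had 7636 and 7978.

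Probe sets of the same gene often disagreed about the limit. Of the 4310 genes with several probe sets, 1292 had all of them above it, 1468 had none and 1550 had some. HUWE1, COL1A1 and GDF15 are examples in the text.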
